A study of Mus musculus with 6 samples.

Results

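The genes described here are 10 members of the cell's first line of defence against superoxide, peroxide and free metal: the superoxide dismutase genes Sod1, Sod2 and Sod3, the catalase gene Cat, the glutathione peroxidase genes Gpx1, Gpx3 and Gpx4, the peroxiredoxin gene Prdx1, and the metallothionein genes Mt1 and Mt2. They were taken by symbol from a table of 29587 gene rows, which held all 10. Of these, 9 passed the expression filter (at least 1 RPKM in at least 3 libraries) and Gpx3 did not. RPKM is the number of reads on a gene, scaled by the gene's length and by the library's total reads.

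The study compared messenger RNA of apoptotic osteoblasts from young and from old mice, with 3 libraries in each group. Bone pieces were cultured, the adherent stromal cells were passaged and switched to osteogenic medium, and the resulting osteoblasts were killed by ultraviolet light, so both groups carry that treatment. The labels give the age class alone, list no genotype, and do not say how many animals stand behind the 3 libraries of a group, so the p-values measure the spread between libraries, which may be technical. The series is about how dying osteoblasts escape removal by phagocytes with age, and the comparison asks which transcripts differ between the age classes.

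Superoxide, a by-product of respiration and of some oxidases, is turned into hydrogen peroxide by the superoxide dismutases. Catalase, the glutathione peroxidases and the peroxiredoxins then reduce the peroxide, each in its own compartment or with its own electron donor. Metallothioneins are small cysteine-rich proteins that bind zinc and copper, scavenge radicals, and are induced by metal, by glucocorticoid and by inflammatory signals.

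The libraries held 64881180 to 84535939 recovered reads, and young replicate 1 stood apart from the other 5. Across tested genes its log2 values correlated with those of young replicates 2 and 3 at 0.949 and 0.962, against 0.996 between the latter (Pearson's r across genes, which are not independent replicates). The summed RPKM of 78 ribosomal protein genes was 72560 in young replicate 1 but 39360 and 43480 in the other young libraries, while the old ones held 50400 to 54040. The 13 mitochondrially encoded genes summed to 10390 in young replicate 1 but 20730 and 22160 in the other young libraries, while the old ones held 15220 to 18180. In both lists old lay between young replicate 1 and the other young libraries. Osteoblast markers were present for 7 of 9 genes, while Alpl and Bglap, at 0.421 to 0.757 and 0.390 to 0.900 RPKM, were below 1. The list summed to 2091 RPKM in young replicate 1, the lowest library, to 3051 and 3090 in the other young libraries and to 2983 to 3072 in old. Its members Sp7 and Spp1 were called in opposite directions. Sp7 was lower in old (means of 8.44 RPKM in young and 4.90 in old, limma adjusted p = 0.0186). Spp1 was higher in old (290 and 732 RPKM, limma adjusted p = 0.0307). Macrophage genes summed to 8.25 to 9.53 RPKM in young and 9.20 to 10.5 in old, mostly Lyz2, with Adgre1, Ptprc and Mrc1 below 0.1. All 5 endothelial and all 5 adipocyte markers used were also below 0.1. Of the 4 smooth muscle genes, Acta2 and Tagln were present, and the list summed to 503.6 to 511 RPKM in young and 535.5 to 611 in old. The chondrocyte genes Sox9 and Col2a1 were present too, with list sums of 34.7 to 73.6 in young, the lowest in young replicate 1, and 53.4 to 57.0 in old. The part of any of these values in the results was not tested, and in such samples more RNA per cell and more cells of a type cannot be told apart.

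Mt2 rose in apoptotic osteoblasts from old mice, to 3.02 times its mean RPKM in young, and was the 1 called gene among the 9 tested. Calls were made by limma on log2(RPKM + 1) at an adjusted p under 0.05 (Benjamini-Hochberg over 12015 genes), a rule that called 1.47% of all tested genes higher and 0.0999% lower in old. None of the 9 fell. The other 8 had log2 fold changes, old against young, between -0.08 for Gpx4 and 0.47 for Mt1, and 3 of them (Cat, Prdx1 and Mt1) had an unadjusted p under 0.05 (limma), as had Mt2, against 11.2% of all tested genes. Over the 9 genes the median log2 fold change was 0.26, against 0.01 over all tested genes.

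All 9 genes exceeded 1 RPKM in all 6 libraries, so the filter set no direction. In 5 of them (Sod3, Cat, Prdx1, Mt1 and Mt2) the old libraries all lay above the young ones, an arrangement found in 10.6% of tested genes, and in 0 the old libraries all lay below, against 10.2%. Without young replicate 1 the same fit called 7 of the 9 higher and 0 lower. That fit also called far more of the other genes, 13.2% higher and 19.4% lower, and the median log2 fold change was 0.36 for the 9 genes against -0.055 for all. Sod3 and Gpx1 were the 2 without a call there.

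**Figure D1:**
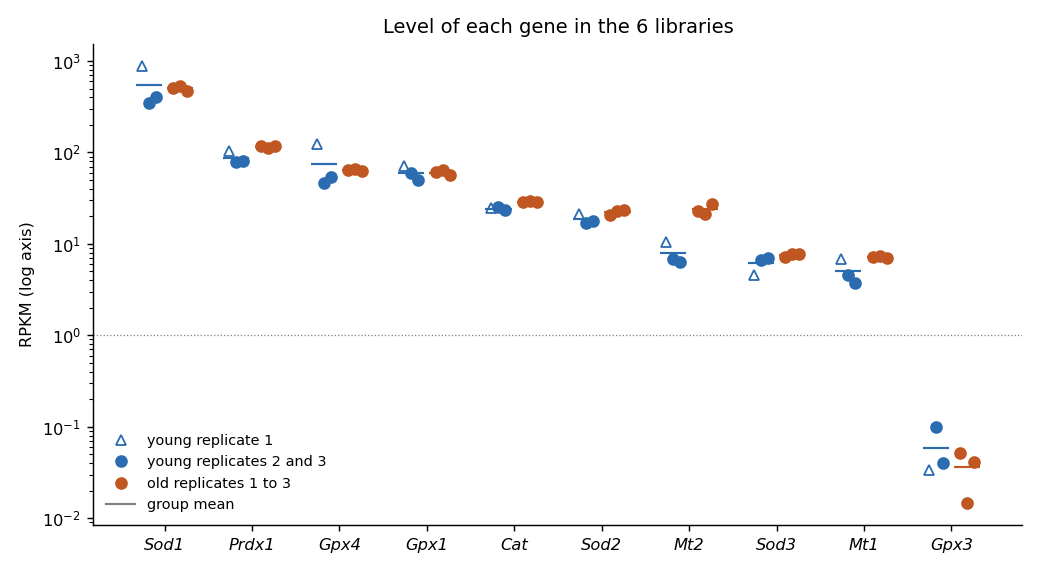
RPKM of each of the 10 genes on a log axis, 1 point per library, with young replicate 1 as an open triangle, the other young libraries in blue, the old libraries in orange, group means as short lines and the 1 RPKM filter dotted. Sod1 lies highest, Gpx3 lies below 0.1 RPKM in all libraries, and the old points of Mt2 lie above all its young points.

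By RPKM at the deposited gene lengths, the genes fell into the same broad order in both groups. Sod1 led, at 547 ± 294 RPKM in the young libraries and 504 ± 35.2 in the old (mean and SD, n = 3 each), above 98.9% of tested genes. Prdx1, Gpx4 and Gpx1 followed. Their ranges overlapped between neighbours in young, and in old Prdx1 (111.5 to 118 RPKM) stood clear of Gpx4 while Gpx4 and Gpx1 overlapped. Cat and Sod2 came next, and Mt2, Sod3 and Mt1 were lowest of the tested genes, with overlapping neighbours in young. In old, Mt2 had moved up to overlap Sod2.

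Sod1 encodes the copper and zinc superoxide dismutase of the cytosol (chromosome 16, 90220742 to 90226322, mm10). It was at 885, 349.6 and 406 RPKM in young replicates 1, 2 and 3 and at 504, 539 and 469 RPKM in old replicates 1, 2 and 3. The groups overlapped because young replicate 1 lay above every old library while the other young libraries lay below every old one. The log2 fold change was 0.01 ± 0.35 (SE), with a 95% interval of -0.83 to 0.85 that is wide in both directions (limma adjusted p = 0.9995). Without young replicate 1 it was 0.42 ± 0.09 (SE, limma adjusted p = 0.0162).

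Sod2 encodes the manganese superoxide dismutase of the mitochondrial matrix (chromosome 17, 13007839 to 13018119). Its values were 21.1, 17.0 and 17.8 RPKM in young and 20.8, 22.9 and 23.6 RPKM in old. Young replicate 1 was again the highest young library and lay just above old replicate 1, the 1 point at which the groups overlapped. Its log2 fold change was 0.26 ± 0.11 (SE, limma adjusted p = 0.476), and 0.35 ± 0.07 without that library (SE, limma adjusted p = 0.0116).

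Sod3, the dismutase secreted into the extracellular matrix (chromosome 5, 52363791 to 52371418), behaved differently in young replicate 1. It was at 4.61, 6.69 and 7.04 RPKM in young and 7.23, 7.67 and 7.83 RPKM in old. The groups did not overlap, but young replicate 1 was the lowest library and young replicate 3 lay close under old replicate 1. Its old excess in log2 units, 0.29 ± 0.15 (SE, limma adjusted p = 0.626), shrank to 0.12 ± 0.06 without young replicate 1 (SE, limma adjusted p = 0.146).

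Cat encodes catalase, the peroxisomal enzyme that splits hydrogen peroxide into water and oxygen (chromosome 2, 103453849 to 103485160). Its young libraries held 24.4, 24.98 and 23.4 RPKM and its old libraries 28.4, 29.4 and 28.8 RPKM. Both groups were tight, with coefficients of variation of 3.28% and 1.62%, they did not overlap, and young replicate 1 lay between the other young libraries. The difference was small, a log2 difference of 0.24 ± 0.08 (SE, limma adjusted p = 0.306), and was 0.25 ± 0.05 without young replicate 1, where it passed the test (SE, limma adjusted p = 0.0156).

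Gpx1 encodes the main cytosolic glutathione peroxidase, a selenoprotein (chromosome 9, 108338903 to 108340343). Its values of 70.3, 58.8 and 50.5 RPKM in young and 60.4, 64.3 and 56.0 RPKM in old overlapped. Their difference was 0.02 ± 0.14 in log2 units (SE, 95% interval -0.32 to 0.36, limma adjusted p = 0.992), and without young replicate 1 it was 0.14 ± 0.08 (SE, limma adjusted p = 0.241).

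Gpx4, the selenoprotein that reduces lipid hydroperoxides in membranes and restrains ferroptosis (chromosome 10, 80047166 to 80056439), followed the pattern of Sod1. It was at 125, 46.5 and 53.2 RPKM in young and 63.7, 66.7 and 62.2 RPKM in old. Young replicate 1 was the highest library and young replicates 2 and 3 the lowest. With all libraries the log2 fold change was -0.08 ± 0.36 (SE, 95% interval -0.95 to 0.80, limma adjusted p = 0.9885), and it was 0.36 ± 0.07 without young replicate 1 (SE, limma adjusted p = 0.0124), a change of sign. The ratio of Sod1 to Gpx4 stayed within 7.09 to 8.09 in all 6 libraries, although each gene differed more than 2-fold between young replicate 1 and young replicate 2. The libraries other than young replicate 1 held 349.6 to 539 RPKM of Sod1 and 46.5 to 66.7 of Gpx4. Across the 6 libraries Sod1 over Sod2 ran from 19.9 to 41.8, Gpx4 over Gpx1 from 0.79 to 1.78 and Sod2 over Cat from 0.68 to 0.865.

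Gpx3, the secreted plasma glutathione peroxidase (chromosome 11, 54902453 to 54910377), was close to 0 in every library. It had 2 to 14 reads per library and 0.0146 to 0.0995 RPKM, so no difference was detectable at this depth.

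Prdx1, an abundant cytosolic peroxiredoxin that is recharged by thioredoxin (chromosome 4, 116685544 to 116700822), was at 103, 78.4 and 80.4 RPKM in young and 118, 111.5 and 117 RPKM in old. The groups did not overlap, and young replicate 1 was the young library nearest to old. Old exceeded young by 0.41 ± 0.13 in log2 units (SE, limma adjusted p = 0.282). Without young replicate 1 it was 0.54 ± 0.05 (SE, limma adjusted p = 0.0011).

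**Figure D2:**
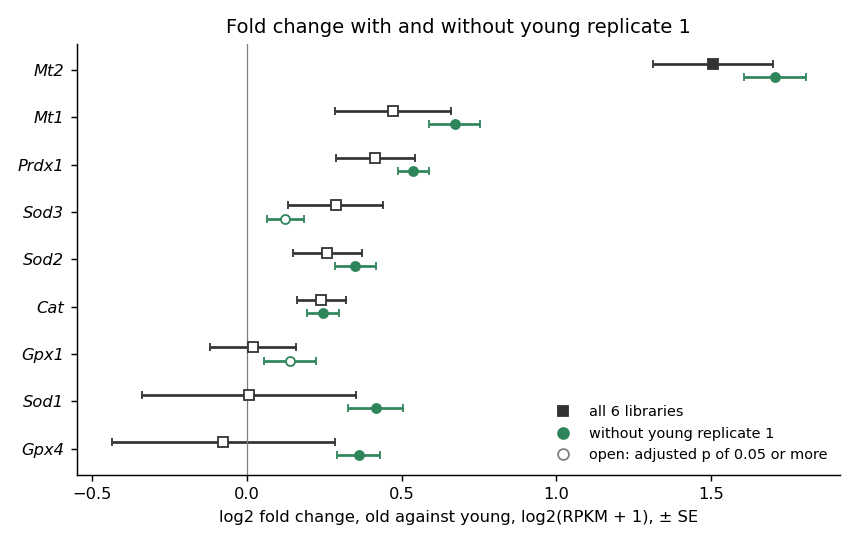
Log2 fold change of the 9 tested genes, old against young, with bars of 1 SE, for all 6 libraries (black squares) and without young replicate 1 (green circles); filled symbols passed the adjusted p threshold of 0.05. Mt2 is filled in both fits, and Gpx4 moves from -0.08 to 0.36.

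In young replicate 1, 7 of the 9 tested genes were above both other young libraries, which was so for 36.4% of tested genes, and 3 (Sod1, Gpx1 and Gpx4) were above all old libraries, against 34.2%. Sod1 and Gpx4 departed most, by 1.23 and 1.31 on the log2 scale from the mean of young replicates 2 and 3. Counting upward departures as higher, 99.7% and 99.8% of tested genes ranked below them, and by size in either direction 96.1% and 97.1% did. Both went beyond the median departure of ribosomal protein genes, 0.80. Sod3 departed the other way, at -0.49. With a gene-length trend taken out of every library, Sod1 and Gpx4 had log2 fold changes of -0.05 and -0.11.

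**Figure D3:**
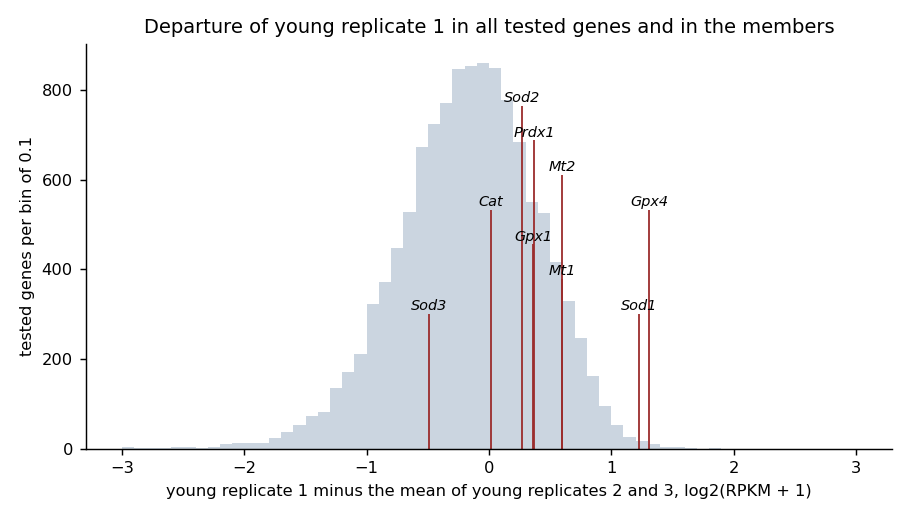
Departure of young replicate 1 from the mean of young replicates 2 and 3 on the log2(RPKM + 1) scale: grey bars count tested genes per bin of 0.1, and red lines mark the 9 genes at heights chosen for legibility. Sod1 and Gpx4 stand in the upper tail at 1.23 and 1.31, and Sod3 lies at -0.49.

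The patterns across the 6 libraries most like those of Sod1 were Myl6, Rpl37a and Flt3l, and those most like Gpx4 were Nudcd2, Alyref and Sdhb (Pearson's r of log2 values over 6 libraries at least 0.998, libraries that share group and depth, given as a description). For Sod1, 773 tested genes had an r above 0.95, and for Gpx4, 764. For Prdx1 the nearest were Ccl7, Utp20 and Pgs1, and 146 genes were above 0.95.

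The metallothionein genes Mt2 and Mt1 lie side by side on the plus strand of chromosome 8, at 94172664 to 94173568 and 94179082 to 94180327, with 5513 bases between them. Their promoters are shown because Mt2 carried the called change and Mt1, its neighbour, did not, and that of Prdx1 because it shares a run of letters with Mt2. Each window runs from 250 bases before to 50 bases after the start in RefSeq (GRCm38.p6, the build of mm10), plus strand, at chr8:94172368-94172667 for Mt2, chr8:94178839-94179138 for Mt1 and chr4:116685349-116685648 for Prdx1. Capitals mark matches, on either strand, to the core of the metal response element, TGCACNC or TGCGCNC, and to the core of the antioxidant response element, TGACNNNGC.
Mt2: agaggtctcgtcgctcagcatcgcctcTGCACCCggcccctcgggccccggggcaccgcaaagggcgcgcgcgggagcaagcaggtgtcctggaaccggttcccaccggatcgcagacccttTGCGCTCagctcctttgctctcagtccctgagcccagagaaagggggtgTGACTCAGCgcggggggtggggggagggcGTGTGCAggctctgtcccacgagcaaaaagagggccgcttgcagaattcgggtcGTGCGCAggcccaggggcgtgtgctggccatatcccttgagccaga
Mt1: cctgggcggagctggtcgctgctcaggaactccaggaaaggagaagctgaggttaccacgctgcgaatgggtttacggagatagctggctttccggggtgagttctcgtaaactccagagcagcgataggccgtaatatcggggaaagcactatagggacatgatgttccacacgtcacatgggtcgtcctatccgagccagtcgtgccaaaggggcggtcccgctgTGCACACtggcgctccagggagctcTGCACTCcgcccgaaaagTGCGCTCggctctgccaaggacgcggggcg
Prdx1: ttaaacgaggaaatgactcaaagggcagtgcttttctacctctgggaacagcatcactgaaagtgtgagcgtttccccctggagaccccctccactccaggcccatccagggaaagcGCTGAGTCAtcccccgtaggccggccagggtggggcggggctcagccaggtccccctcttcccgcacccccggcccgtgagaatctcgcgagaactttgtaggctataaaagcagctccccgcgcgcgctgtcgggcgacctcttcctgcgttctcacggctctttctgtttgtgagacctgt

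Mt2 had 4 matches to the metal response core, starting 223, 128 and 50 bases before and 5 bases after the start, and Mt1 had 3, starting 23 bases before and 3 and 21 bases after it. Of 32851 promoter windows, 25.7% held at least 1 such match, 1.97% at least 3 and 0.517% at least 4. Mt2 and Prdx1 each held 1 match to the antioxidant core with the same letters, TGACTCAGC on one strand or the other, which 0.454% of windows held. Sod1 had 1 match with other letters, TGACCACGC. No other member with a window matched the metal or antioxidant core, where 12.39% of windows held at least 1 antioxidant core, and windows were found for 9 of the 10 genes, Sod3 being the exception. The core of the interferon-stimulated response element, GAAANNGAA, was found once, in 1 of 4 Gpx4 windows, and in 8.56% of all windows. Deposited exons of Mt1 also begin 122 and 152 bases after the RefSeq start, and the bases next to those starts lie outside the window shown. Which start these cells used was not tested, so the match counts of Mt1 and Mt2 may not compare like regions. The marked matches do not overlap each other. A match is a run of letters and not a shown binding site.

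Mt2 was at 10.5, 6.79 and 6.38 RPKM in young and at 23.0, 21.4 and 27.2 RPKM in old. Each old library was at least 2.04 times the highest young one, which was young replicate 1. The log2 fold change was 1.51 ± 0.19 (SE, limma adjusted p = 0.019), larger than that of 99.4% of tested genes. Leaving out young replicate 1 gave 1.71 ± 0.10 (SE, limma adjusted p = 0.00012). Leaving out any 1 of the other 5 libraries kept the log2 fold change between 1.39 and 1.58 but ended the call (limma adjusted p = 0.0692 to 0.119).

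Reads of Mt2 cannot be told apart from those of the opposite strand. The row RP23-98C9.5, on the minus strand at 94170748 to 94173412, covers 432 of the 588 exonic bases of Mt2. It held 402, 308 and 312 reads in young and 1138, 949 and 1290 in old, and Mt2 held 400, 310 and 311 in young and 1142, 950 and 1290 in old. The 2 rows differed by at most 4 reads in a library. So near an equality in all 6 libraries means that nearly all these reads were counted in both rows, without separating the strands. RP23-98C9.5 extends beyond Mt2, from 94170748 to the start of Mt2 at 94172664, and still did not exceed it by more than 4 reads. The strand setting is not given in the sources used here, and the strand the reads came from was not tested. The rise is therefore given for the pair of rows, and the level of Mt2 relative to other genes is uncertain. Of all tested genes RP23-98C9.5 was also nearest to Mt2 in pattern, followed by Il1rl1 and Ptgs2os2 (Pearson's r at least 0.998 over 6 libraries).

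**Figure D4:**
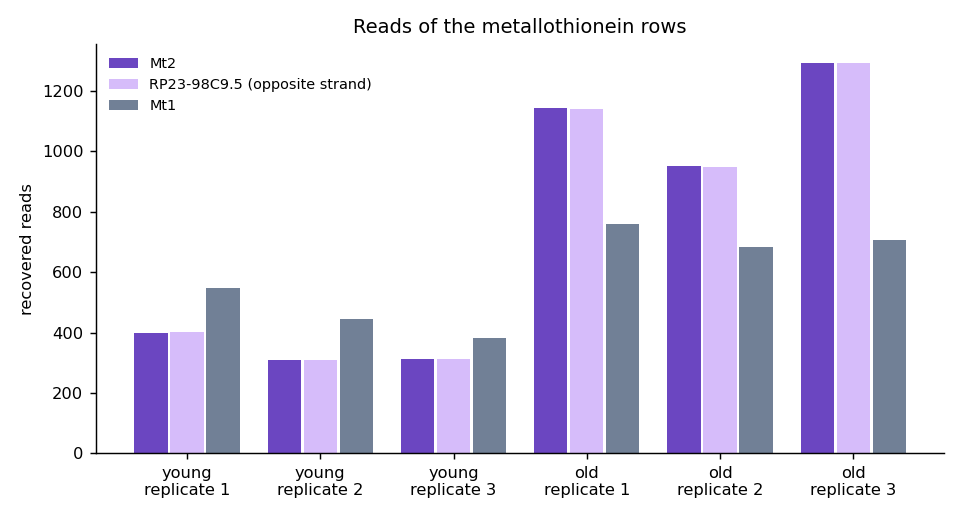
Recovered reads in each library for Mt2, for RP23-98C9.5 on the opposite strand and for Mt1, as bars from 0. The first 2 rows are equal within 4 reads in every library and reach 949 to 1290 in old, while Mt1 reaches 684 to 758.

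Mt1 did not pass the test. It was at 6.75, 4.59 and 3.70 RPKM in young and at 7.20, 7.28 and 7.02 RPKM in old. The groups did not overlap, but young replicate 1 lay close under the old libraries, which were tight (coefficient of variation 1.85%). The log2 fold change was 0.47 ± 0.19 (SE, limma adjusted p = 0.416), and 0.67 ± 0.08 without young replicate 1 (SE, limma adjusted p = 0.00323). No other row of the table shared exonic bases with Mt1.

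The 2 metallothioneins were also compared within each library. The ratio of Mt2 to Mt1 RPKM was 1.55, 1.48 and 1.73 in young and 3.19, 2.94 and 3.87 in old. Young replicate 1 lay within its group here, between the other young libraries. The groups did not overlap, and the exact two-sided permutation test over the 6 libraries gave p = 0.1, the smallest value that 3 against 3 allows. Gene length cancels in this comparison but not in the level of 1 gene against the other. The deposited length of Mt1, 1246 bases, equals its whole span from first to last deposited base. Its principal coding transcript in GENCODE M21 has 549. Per base of the principal transcript (a choice made after seeing the data) Mt1 was at 11.4 ± 3.57 RPKM in young, above Mt2 at 9.07 ± 2.60 RPKM, and at 16.3 ± 0.300 RPKM in old, below Mt2 at 27.4 ± 3.43 RPKM (SD, n = 3 each).

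The wider machinery around these genes was described by 5 further lists, again against 1.47% of tested genes called higher and 0.0999% lower. Among 18 tested genes of thioredoxin and glutathione recycling, Srxn1 rose and 0 fell, and the log2 fold changes had a median of 0.16. Srxn1 encodes sulfiredoxin, which restores overoxidised peroxiredoxins such as the product of Prdx1. It was at 17.2, 14.1 and 13.0 RPKM in young and at 32.2, 32.8 and 33.1 RPKM in old, and the groups were far apart. Its log2 fold change was 1.11 ± 0.12 (SE, limma adjusted p = 0.00796). The call ended without any 1 of the old replicates, at a limma adjusted p of 0.071 to 0.0784.

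None of 8 other superoxide and peroxide enzymes was called by limma with all libraries, at a median log2 fold change of -0.03. They include the remaining peroxiredoxins and Ccs, the chaperone that loads copper into Sod1, which was at 34.7 ± 5.22 RPKM in the young libraries and 34.7 ± 2.54 in the old (mean and SD, n = 3 each). Prdx5 was the most abundant, at 92.4 ± 31.2 and 84.9 ± 2.88 RPKM (SD, n = 3 each).

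Among 8 tested sources of superoxide and peroxide none was called over all genes by limma. Xdh, which encodes xanthine oxidoreductase and was singled out after its values were seen, came nearest: it was at 2.36, 5.08 and 4.31 RPKM in young and 10.7, 9.75 and 12.2 RPKM in old, groups that did not overlap (limma adjusted p = 0.0626). It passed the test when library medians were set equal, when values were quantile normalized and when the length trend was removed (limma adjusted p = 0.0188, 0.0178 and 0.016), and over all alternatives the adjusted p ran from 3.27e-05 to 0.312. Of the phagocyte oxidase, the membrane subunit gene Cyba was at 24.3 ± 4.13 and 25.9 ± 1.48 RPKM (SD, n = 3 each). Its partner Cybb, and Rac2 and Ncf1, were at means below 0.1 RPKM in both groups. Nox4 was at 0.145 ± 0.0139 and 0.121 ± 0.0145 RPKM (SD, n = 3 each).

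Of 19 tested genes of zinc and copper handling, 0 were called by limma, with a median log2 fold change of 0.02. Mtf1, the metal-sensing transcription factor of the metallothionein genes, was at 1.19 ± 0.266 RPKM in the young libraries and 1.10 ± 0.0783 in the old (mean and SD, n = 3 each). Slc30a1, a zinc exporter and another target of Mtf1, was at 0.942 ± 0.0693 and 1.08 ± 0.122 RPKM and did not pass the filter. The brain metallothionein gene Mt3 was near 0. Of 19 tested genes of selenoprotein synthesis and other selenoproteins, 0 were called by limma, with a median of -0.07.

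Without young replicate 1 these lists also gained calls, against the 13.2% higher and 19.4% lower of all tested genes in that fit. In thioredoxin and glutathione recycling 9 genes rose, Srxn1, Gclm, Txn1 and Gsr with the smallest p, and Sesn1 fell. Prdx6 rose among the other enzymes, and Xdh and Ero1l among the sources. Slc39a1 and Cox17 rose and Slc39a3 and Slc39a13 fell in metal handling, and Selenow, Dio3 and Selenok rose among the selenoprotein genes. The deposited rows of Gclm, Slc39a13 and Cox17 share exonic bases with other rows, so their values are uncertain.

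**Figure D5:**
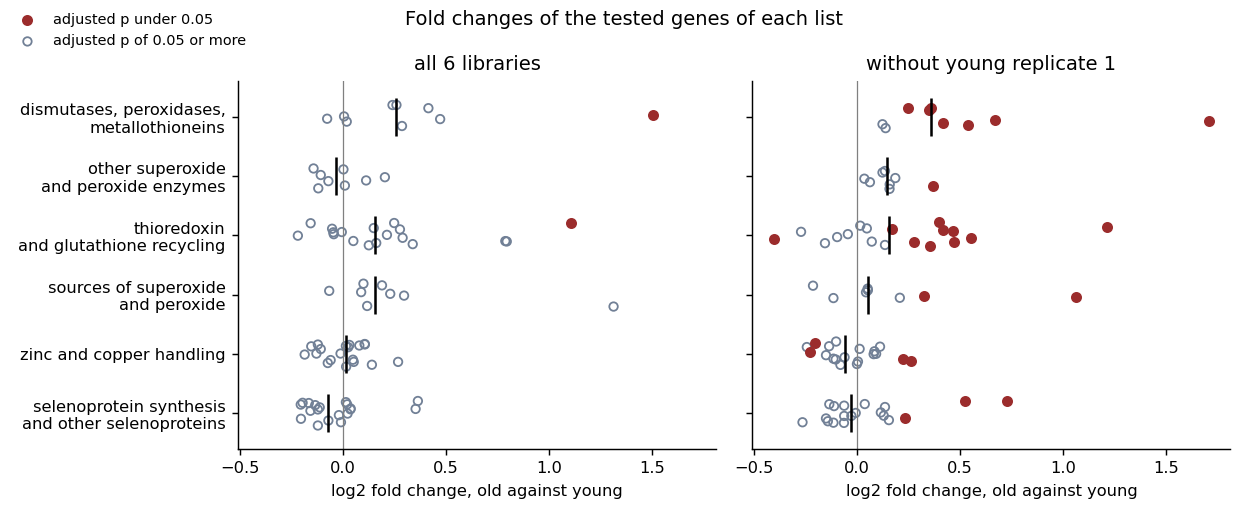
Log2 fold change, old against young, of every tested gene of the 9 members and the 5 further lists, with all 6 libraries (left) and without young replicate 1 (right); filled red points passed the adjusted p threshold of 0.05, open points did not, and black ticks are list medians. With all libraries Mt2 and Srxn1 are the 2 filled points.

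Some members have near copies or overlapping models elsewhere in the genome. Of the 50-base words of their GENCODE M21 transcripts, the largest share that occurs also in other genes was that of Mt2, 45.8%, shared with the antisense gene that overlaps it. The share was 34.7% for Gpx4, chiefly with a Gpx4 pseudogene. The same held for 8.81% of Prdx1, 3.42% of Sod1 and a share of Sod2 between those of Gpx4 and Prdx1, and none of Sod3, Cat, Gpx1 or Mt1. Reads from such stretches may have been lost or shared in counting. In that respect the levels of these genes are less certain than those of Cat and Mt1. The level of Mt1 depends instead on the length used. Its mean in young was 5.01 RPKM with the deposited 1246 bases and 11.4 RPKM with the 549 of its principal transcript.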

How the data were processed

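Messenger RNA libraries were made from Trizol-extracted total RNA, per the labels' protocols, for 3 young and 3 old samples. The submitters' processing notes name fastp, STAR, HTSeq, edgeR and mm10, with no versions or roles. The authors deposited 1 table of RPKM values with exon positions and summed exon length, per the file headers. RPKM times length gave whole reads for 100% of values (tolerance 0.01 reads) in each library, and 77.5% to 79.3% of genes with 1 to 5 reads had an even count, so reads are not independent molecules.

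Genes that reached an RPKM of 1 in 3 or more libraries were tested in R 4.3.3 by limma (version 3.58.1) on log2 of the deposited RPKM plus a pseudocount of 1, which understates changes of low genes. Age class was the 1 term, with a variance trend, a two-sided test and Benjamini-Hochberg adjustment. Promoters (RefSeq, GRCm38.p6) were searched for motifs on both strands, and shared words and transcript lengths came from GENCODE M21. No amino acid sequences were used here.

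The members and the gene lists were chosen with earlier results of these data known. All 10 members are named, with the called genes of each list (up to 4 per direction, smallest p first), the 3 genes of highest Pearson's r and rows that overlap a member. Other genes of the lists are named for their role or level, after their values were seen. Of the marker lists not described in the results, neutrophil genes summed to at most 0.134 RPKM and erythroid genes to at most 0.16 RPKM in any library. Alternatives covered the pseudocount, filter, scaling, gene-length trend, library weights, robust variance, limma voom on the recovered reads, the replicate number, each library left out and the threshold.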

Additional observations from a re-analysis of the deposited data

How the results depend on the processing

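Of 153 alternative fold changes of the 9 tested members, 123 kept their direction and their side of the threshold, 11 newly passed it in the same direction, 6 no longer did and 13 changed sign. Of those 13, 2 (both of Gpx4) also newly passed, 13 new calls in all. Mt2 was higher in old in all 17 alternatives and called in 11 (limma adjusted p between 2.46e-06 with library weights and 0.119 without old replicate 1). The depth limits Gpx3 alone among the members.

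Members called higher numbered 1, and 8 with estimated library weights, which gave young replicate 1 a weight of 0.0425, 0 with the replicate block and 0 to 7 when 1 library was left out. All tested genes called higher numbered 177, and 99 with a mean RPKM of at least 5, 2119 with weights, 82 with the replicate block and 80 to 1589 with a library left out. On the recovered reads limma voom called 162 higher and 8 lower. Those called lower numbered 12, and 44 with the length trend removed, 2957 with weights, 0 with the replicate block, 62 at an adjusted p under 0.1 and 0 to 2329 with a library left out. In thioredoxin and glutathione recycling 1 was higher, with 9 under weights, 0 under the replicate block and 0 to 9 with a library left out, and 0 were lower, with 2 under weights and 0 to 1. The other enzymes had 0 higher, with 2 under weights and 0 to 1 with a library left out. The sources had 0 higher, with 1 under median scaling, quantile normalization, length trend removal and the threshold of 0.1, 2 under weights and 0 to 2 with a library left out, and 1 lower under weights. Metal handling had 0 in both directions, with 2 higher and 2 lower under weights and 0 to 2 of each with a library left out. Selenoprotein genes had 0, with 4 higher and 2 lower under weights and 0 to 3 higher with a library left out.

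Sod1 fell below 0 at -0.02 (median scaling), -0.017 (quantile normalization), -0.046 (length trend removed), and -0.253, -0.144 and -0.043 without young replicate 2, young replicate 3 and old replicate 2. Gpx1 did so at -0.008, -0.013 and -0.015 under the same 3 scalings and at -0.095 and -0.029 without young replicate 3 and old replicate 2. Gpx4 rose above 0, to 0.278 with weights and 0.361 without young replicate 1. With each library left out, the log2 fold change ranged from -0.253 to 0.416 for Sod1, -0.095 to 0.139 for Gpx1 and -0.342 to 0.361 for Gpx4. The cause of these changes was not tested.

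Replicate numbers were not shown to pair the samples: same-numbered libraries had correlations of their deviations of -0.026, -0.436 and 0.329, and not every library correlated best with its own number. With the replicate block Mt2 had a log2 fold change of 1.51 (limma adjusted p = 0.0704).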
